A study of Mus musculus with 15 samples.

Results

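The oligodendrocyte lineage and myelin genes are 36 genes of the count table, chosen by symbol from genes known to be expressed between the oligodendrocyte precursor and the myelinating cell, and they stand among 55471 genes in all. All 36 matched a gene ID of the table and passed the filter on low counts (more than 1 CPM, a count scaled to the size of its library, in at least 3 libraries), as did 16171 genes in total. RNA of the whole hippocampus of female mice aged 3 months was sequenced in 15 libraries, 3 per group. DM mice were homozygous for the *App* NL-G-F knock-in and heterozygous for human *APOE4* (AppNL-G-F/NL-G-F with Apoe4+/wt), APP-TKI mice carried the *App* knock-in alone (AppNL-G-F/NL-G-F), and these groups were sequenced in batch 1 with Wild-type (WT) mice. ApoE4 mice (ApoE4+/wt) were sequenced in batch 2 with WT mice of their own. WT mice were C57BL/6JInv, and DM mice came from a cross of the knock-in lines. Both alleles are knock-ins present in every cell and not transgenes limited to a cell type, and DM and ApoE4 libraries never share a batch. The labels do not name the animal of each library, but the study counts 3 per group in each batch and describes its samples as mice. A p-value here rests on the scatter of libraries within groups. That scatter was pooled over the groups of a fit, with information shared across genes.

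Oligodendrocyte precursors carry the receptor PDGFRA, divide, and leave the cycle to become oligodendrocytes under the control of transcription factors such as SOX10 and MYRF. The mature cell wraps axons in compact membrane, and the genes of its structural proteins and of its lipid enzymes are switched on together. In the hippocampus the myelinated fibres run mainly in the alveus, the fimbria and the layers that the perforant path crosses.

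Every member was counted in every library. Compared per length, as RPKM (counts scaled by exon length and by the library total, mean of the 15 libraries), *Mbp*, the basic protein that holds the cytoplasmic faces of myelin together, was the highest at 301. *Mobp*, another small basic myelin protein, followed at 117, and *Qdpr*, the reductase that recycles tetrahydrobiopterin, at 106. *Cnp*, the myelin phosphodiesterase, was at 91.0, *Mal*, a proteolipid of lipid rafts, at 87.6, and *Cldn11*, the claudin of the myelin tight junction, at 75.2. The low end held *Nkx2-2*, a homeodomain factor of differentiating precursors, at 1.51, *Enpp6*, a choline phosphodiesterase of newly forming oligodendrocytes, at 1.41, *Klk6*, a secreted serine protease, at 0.732, and *Sgk2*, a kinase, at 0.572. *Klk6* was counted 8 to 140 times per library and *Sgk2* 49 to 104 times, against 56271 to 156111 times for *Mbp*. On the other strand 14 of the 36 members are overlapped by another gene, among them *Nkx2-2*, *Bcas1*, *Qdpr*, *Pdgfra* and *Mbp*. The libraries were directional, but the sources used here do not say whether the counting used the strand, and reads of a partner cannot be told apart from those of these 14 genes.

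The promoters of 3 myelin genes that varied together across the libraries of batch 1 are shown. In batch 2 *Opalin* did not follow *Mobp*. The promoters were picked because they hold letters that SOX-type or MYRF-type factors are known to bind. Those of *Cldn11* and *Mal*, also myelin sheath genes, held neither kind. Each window runs from 250 bases before to 50 bases after a RefSeq transcript start on GRCm38.p6, read on the gene's strand. Capitals mark ACAAAG or ACAATG (SOX-type) and CTGGNAC (MYRF-type) on either strand.
*Mobp*, chr9:120149492-120149791, plus strand: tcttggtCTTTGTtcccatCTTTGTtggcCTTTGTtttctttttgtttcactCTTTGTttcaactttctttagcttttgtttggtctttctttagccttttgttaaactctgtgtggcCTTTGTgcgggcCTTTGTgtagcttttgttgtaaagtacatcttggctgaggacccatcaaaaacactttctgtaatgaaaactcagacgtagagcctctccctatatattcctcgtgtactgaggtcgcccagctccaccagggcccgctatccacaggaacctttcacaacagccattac
*Mag*, chr7:30914814-30915113, minus strand: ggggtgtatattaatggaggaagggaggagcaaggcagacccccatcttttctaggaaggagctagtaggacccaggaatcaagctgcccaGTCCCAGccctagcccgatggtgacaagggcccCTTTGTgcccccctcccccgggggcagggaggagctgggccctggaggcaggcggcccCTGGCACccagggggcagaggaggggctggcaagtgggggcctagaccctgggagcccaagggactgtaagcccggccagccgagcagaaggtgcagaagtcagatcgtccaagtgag
*Opalin*, chr19:41077064-41077363, minus strand: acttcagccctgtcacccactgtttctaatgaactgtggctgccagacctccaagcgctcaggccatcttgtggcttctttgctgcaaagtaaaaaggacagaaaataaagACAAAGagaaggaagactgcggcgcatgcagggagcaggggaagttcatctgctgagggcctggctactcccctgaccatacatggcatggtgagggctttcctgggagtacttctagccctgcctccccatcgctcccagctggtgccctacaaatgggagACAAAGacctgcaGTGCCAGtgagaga
The *Mobp* window held 6 SOX-type matches and 0 MYRF-type matches, the *Mag* window 1 and 2, and the *Opalin* window 2 and 1. *Mag* has another window that overlaps this one and also holds 1 and 2, and a further window with 0 and 0. Of the 36 members, 27 had a RefSeq window, 34 windows in all. A SOX-type match stood in 14 of the 34 windows (41.2%), against 28.6% of all 32851 windows, and a MYRF-type match in 12 of the 34 (35.3%), against 19.3% of all windows. With only the first listed window of each gene, since windows of 1 gene can overlap, the shares were 33.3% of 27 members against 28.8% of 27025 genes for SOX-type letters and 33.3% against 19.2% for MYRF-type letters. A match is a run of letters and not a bound site. The windows of *Pdgfra*, *Nkx2-2*, *Qdpr* and *Anln*, described below, held neither. Each window of *Lpar1*, *Ptprz1*, *Hapln2* and *Klk6*, also described below, held at least 1 match.

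The members moved together from library to library, within groups as well as between them. In batch 1, 32 of the 36 were above the mean of the batch in APP-TKI replicate 1, against 2 in APP-TKI replicate 2 and 13 in APP-TKI replicate 3. Among the DM libraries the count was 15, 31 and 15, and among the WT libraries it was 1, 35 and 9. So each genotype held at least 1 library with most members low and 1 with most members high, while the share of all tested genes above the batch mean stayed between 45.6% and 58.0%. The summed level of the 36 genes was 5504, 6190 and 5450 CPM in DM libraries, 6627, 4743 and 5409 CPM in APP-TKI libraries, and 4372, 6091 and 5358 CPM in WT libraries. APP-TKI replicate 1 was the highest library of batch 1 for 20 of the 36 members, and WT replicate 1 and APP-TKI replicate 2 were the lowest for 18 and 10. In bulk RNA, fewer cells and less RNA per cell cannot be told apart.

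In batch 2 the ApoE4 libraries were divided in this way and the WT libraries were not. In ApoE4 libraries 33, 3 and 28 members were above the batch mean, and in WT libraries 18, 10 and 14. The summed level was 8037, 6746 and 8615 CPM in ApoE4 libraries, against 7503, 7207 and 7580 CPM in WT libraries. ApoE4 replicate 3 was the highest library of the batch for 25 members and ApoE4 replicate 2 the lowest for 27, and the summed level of each WT library lay between the extremes of the ApoE4 ones.

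**Figure D1:**
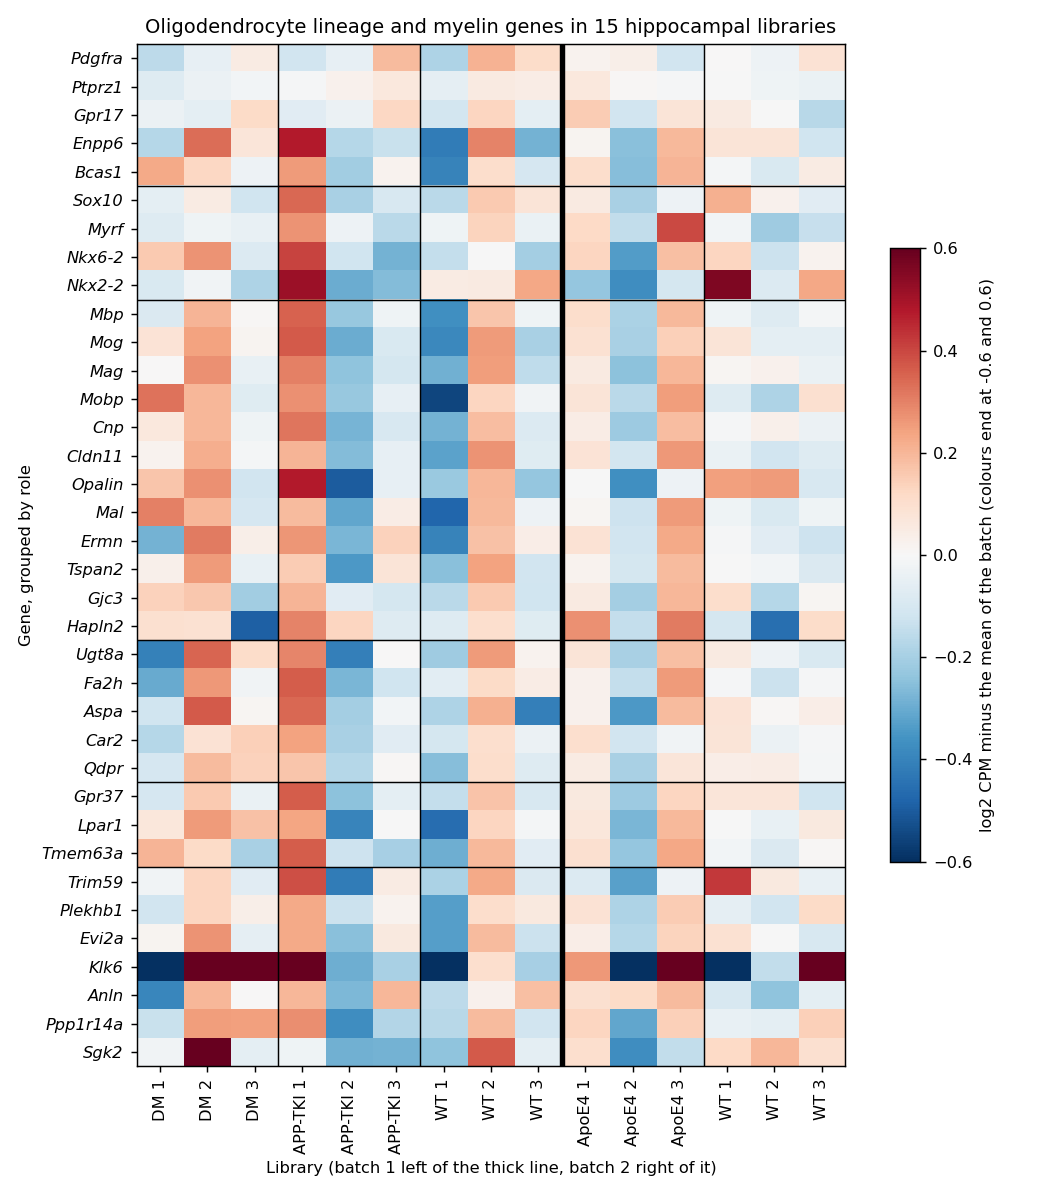
Level of each of the 36 genes (rows, grouped by role) in each of the 15 libraries (columns), as log2 CPM minus the mean of its batch, red above and blue below. Several columns are mostly of 1 colour: 32 of 36 genes are above the mean in APP-TKI replicate 1, 1 in WT replicate 1 of batch 1, and 3 in ApoE4 replicate 2.

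The members were also more variable than most genes. The SD between libraries of a group, on the log2 scale, had a median of 0.248 over the members in batch 1, against 0.129 over all tested genes, and 34 of the 36 were above the median of all genes. In batch 2 the medians were 0.151 and 0.111, with 30 of 36 above. The range of the group means was smaller than the SD within groups for 31 members in batch 1 and for 26 in batch 2. The share of all genes with this property was not counted, so these counts have no background to be read against. Batch 1 also holds more groups than batch 2. Between the highest and the lowest library of batch 1 the members differed by 1.10-fold (*Ptprz1*) to 4.76-fold (*Klk6*), with a median of 1.58-fold.

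The precursor genes *Ptprz1*, *Pdgfra* and *Gpr17* varied less between the libraries of batch 1 than any of the 12 myelin sheath genes. In batch 2 this was not so for *Gpr17*, whose extremes differed by 1.25-fold, against 1.23-fold for *Tspan2*, a tetraspanin of the sheath. *Ptprz1*, a receptor tyrosine phosphatase that astrocytes also express, had 322, 331 and 336 CPM in DM libraries, 338, 346 and 355 CPM in APP-TKI libraries, and 327, 352 and 350 CPM in WT libraries. *Pdgfra*, the growth factor receptor that defines precursors, had 63.4, 68.3 and 73.2 CPM in DM libraries, 65.3, 68.4 and 80.7 CPM in APP-TKI libraries, and 62.2, 81.6 and 76.4 CPM in WT libraries. All 3 groups overlapped for *Pdgfra*, and the APP-TKI library that led the myelin genes was the lowest of its group. *Gpr17*, a receptor of committed precursors, differed by 1.18-fold between the extremes of batch 1, against 1.65-fold for *Mbp*, 1.84-fold for *Mobp* and 1.97-fold for *Opalin*, a membrane protein of the paranodal loops. *Enpp6* and *Bcas1*, both of cells that begin to myelinate, differed by 1.87-fold and 1.57-fold.

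A set of 26 further genes of mature oligodendrocytes that are no members followed the members. The median over these genes was 0.28 above the batch mean in APP-TKI replicate 1, where the median over the members was also 0.28. In APP-TKI replicate 2 it was -0.22, where the members stood at -0.24. In DM replicate 2, WT replicate 1 and WT replicate 2 it moved in the same direction but less far. There it was 0.12, -0.15 and 0.09, against 0.20, -0.23 and 0.17 for the members. Medians over 8 astrocyte markers stayed between -0.14 and 0.11 on the same log2 scale in batch 1 and those over 6 general neuron markers between -0.09 and 0.10. The astrocyte value of -0.14 was that of WT replicate 1, also low for the members, where the median over 7 microglia markers was -0.10. In APP-TKI replicate 2, low for the members too, these lists stood at 0.01 and 0.06. Other lists moved further. The median over 4 choroid plexus markers was 0.89 in APP-TKI replicate 1, 0.64 in DM replicate 2 and 0.55 in WT replicate 2, the libraries highest for the members, and -1.55 in WT replicate 1. In APP-TKI replicate 2, low for the members, it was -0.32, that over 5 ependymal markers was -1.68 and that over 4 dentate granule neuron markers was 0.41. The part of these cells in the members' values was not tested. The share of counts in long noncoding RNAs was 2.16% to 2.89% in batch 1, and 2.65% to 2.89% in DM replicate 1, APP-TKI replicates 1 and 2 and WT replicate 1, which include both the highest and the lowest libraries for the members. Its part in the result was not tested.

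**Figure D2:**
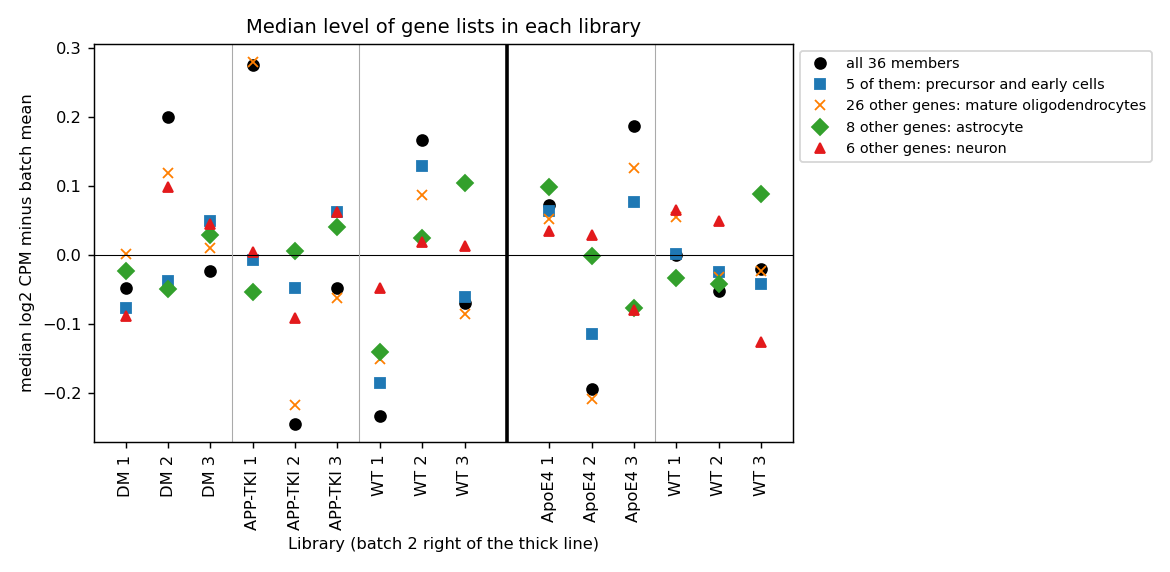
Median over each gene list of the log2 CPM minus the batch mean, for each library. The 36 members (black) and 26 other genes of mature oligodendrocytes (crosses) spread over similar distances, from -0.24 to 0.28 for the members in batch 1, while astrocyte markers in that batch stay between -0.14 and 0.11.

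Markers of neighbouring structures were high in some libraries of batch 2. Striatum markers (7 of 7 passed the filter) summed to 171 to 1004 CPM in ApoE4 libraries, against 150 to 175 CPM in WT libraries of batch 2, and the high value was that of replicate 3. Thalamus markers (6 of 6) summed to 107 to 147 CPM in ApoE4 libraries, against 74.8 to 324 CPM in WT libraries of batch 2, with the high value again in replicate 3. Choroid plexus markers (4 passed) reached 1853 CPM in an ApoE4 library and 1551 CPM in a WT library of that batch. In batch 1 the striatum markers stayed between 146 and 159 CPM, the thalamus markers between 68.5 and 87.0 CPM, and the choroid plexus markers between 23.4 and 69.0 CPM.

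DM was compared with WT in batch 1 to ask what both alleles together changed. A gene was called where edgeR's quasi-likelihood test gave a p under 0.1 after Benjamini-Hochberg adjustment over the whole table. By that rule 0 of the 36 members were called, against 2 of all 16171 genes (0.0124%), and 0 members were called by DESeq2, which called 0.309% of all genes, and by the robust likelihood ratio test of edgeR, which called 0.841%. At an unadjusted p under 0.05 the count was 0, against 4.55% of all genes. The log2 fold change was positive for 28 members and negative for 8, against 54.9% positive over all genes, with a median of 0.10 over the members and 0.01 over all genes. With the groups scaled by TMM or by the median of ratios, 48.0% and 46.0% of all genes were positive, and 28 and 26 members were. The excess moved with single libraries. Without WT replicate 1, 18 members were higher and 18 lower, with a median of 0.00, and without DM replicate 2, 23 were higher and 13 lower, with a median of 0.02. Without WT replicate 2 the median was 0.24. The 95% interval of the log2 difference lay within 0.5 on either side of 0 for 23 of the 36 genes and within 1 for 35, all but *Klk6*.

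Of the myelin sheath genes 11 of 12 were higher in DM, with a median of 0.12. *Mbp* had 1995, 2438 and 2123 CPM in DM libraries, against 1639, 2371 and 2080 CPM in WT libraries. The ranges overlapped over most of their length, and the log2 fold change was 0.11 (SE 0.15, adjusted p = 1.00 by the quasi-likelihood test). It was -0.026 without WT replicate 1. *Mag*, the adhesion protein that faces the axon, had 145, 175 and 140 CPM in DM libraries, against 118, 172 and 130 CPM in WT libraries. Replicate 2 was the highest library in both groups, and the log2 fold change was 0.13 (SE 0.16, adjusted p = 1.00 by the quasi-likelihood test). *Hapln2*, a link protein of the nodal matrix, was the single member of the role with a negative value, -0.06.

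Of the lipid and metabolic enzymes 4 of 5 were higher and of the receptors and channels 3 of 3. *Qdpr* had 164, 201 and 194 CPM in DM libraries, against 148, 189 and 167 CPM in WT libraries. Each DM library was above the WT library of its number although the groups overlapped. The fold change on the log2 scale was 0.15 (SE 0.11, adjusted p = 1.00 by the quasi-likelihood test). *Lpar1*, a receptor for lysophosphatidic acid, had 27.4, 31.3 and 29.6 CPM in DM libraries, against 19.1, 28.6 and 26.03 CPM in WT libraries. Its values too were higher in DM at each number, by 0.26 on the log2 scale (SE 0.16, adjusted p = 1.00 by the quasi-likelihood test). The remaining enzymes had log2 fold changes of 0.21 (*Aspa*, which cleaves N-acetylaspartate), 0.04 (*Car2*, a carbonic anhydrase), 0.02 (*Ugt8a*, the galactosylceramide synthase) and -0.04 (*Fa2h*, which hydroxylates fatty acids of myelin lipids).

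Same-numbered DM and WT libraries deviated together over all genes, and a fit with these pairs changed the call of 1 member. With the replicate number as a block and the DM and WT libraries only, an alternative chosen after the data were seen, *Qdpr* was called (log2 fold change 0.15, SE 0.04, adjusted p = 0.0794 by the quasi-likelihood test). The gene lies at chr5:45434021-45450236 on the minus strand (GRCm38), and 422 genes (2.61%) were called in all. In that fit 13 members had an unadjusted p under 0.05, all of them higher in DM, against 14.2% of all genes. *Lpar1* followed with a log2 fold change of 0.27 (adjusted p = 0.103), *Mog*, on the outer face of myelin, with 0.22 (adjusted p = 0.173) and *Mag* with 0.14 (adjusted p = 0.198). With the block in the fit of all 9 libraries, 0 members and 11 genes were called. By number, 29, 23 and 22 members were higher in the DM library than in its WT counterpart, with median ratios of 1.15, 1.01 and 1.04.

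The precursor genes and the transcription factors had no common direction. *Bcas1* had 183, 170 and 153 CPM in DM libraries, against 119, 169 and 146 CPM in WT libraries. DM replicates 1 and 2 were above the highest WT library and replicate 3 was within the WT range, at a log2 fold change of 0.23 (SE 0.13, adjusted p = 1.00 by the quasi-likelihood test). *Sox10*, which turns on most myelin genes, had 32.4, 34.9 and 31.1 CPM in DM libraries, against 30.2, 37.6 and 35.6 CPM in WT libraries, a log2 fold change of -0.07 (SE 0.13, adjusted p = 1.00). The DM values of *Pdgfra* lay within the WT range, with a log2 fold change of -0.10 (SE 0.11, adjusted p = 1.00). *Nkx2-2* was the 1 member whose libraries did not overlap, with 4.10, 4.29 and 3.84 CPM in DM libraries, against 4.52, 4.53 and 5.12 CPM in WT libraries, and 10.4% of all genes had groups that did not overlap. Its log2 fold change was -0.21 (SE 0.20, adjusted p = 1.00). Of the 26 further mature genes 20 were higher and 6 lower in DM, and of 10 further precursor genes 3 were higher and 7 lower, with 0 called. Among the mature genes *Apod*, an apolipoprotein that fibroblasts also make, had the smallest p, with a log2 fold change of 0.38 (SE 0.11, adjusted p = 0.712). Endothelial markers (7 of 7 passed) summed to 49.9 to 66.4 CPM in DM libraries, against 36.5 to 43.4 CPM in WT libraries, and fibroblast markers (6 passed) to 96.8 to 106 CPM, against 75.3 to 84.7 CPM. Ependymal markers (5 passed) summed to 17.6 to 24.4 CPM in DM libraries, against 8.39 to 11.47 CPM in WT libraries. Their part in these values was not tested.

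**Figure D3:**
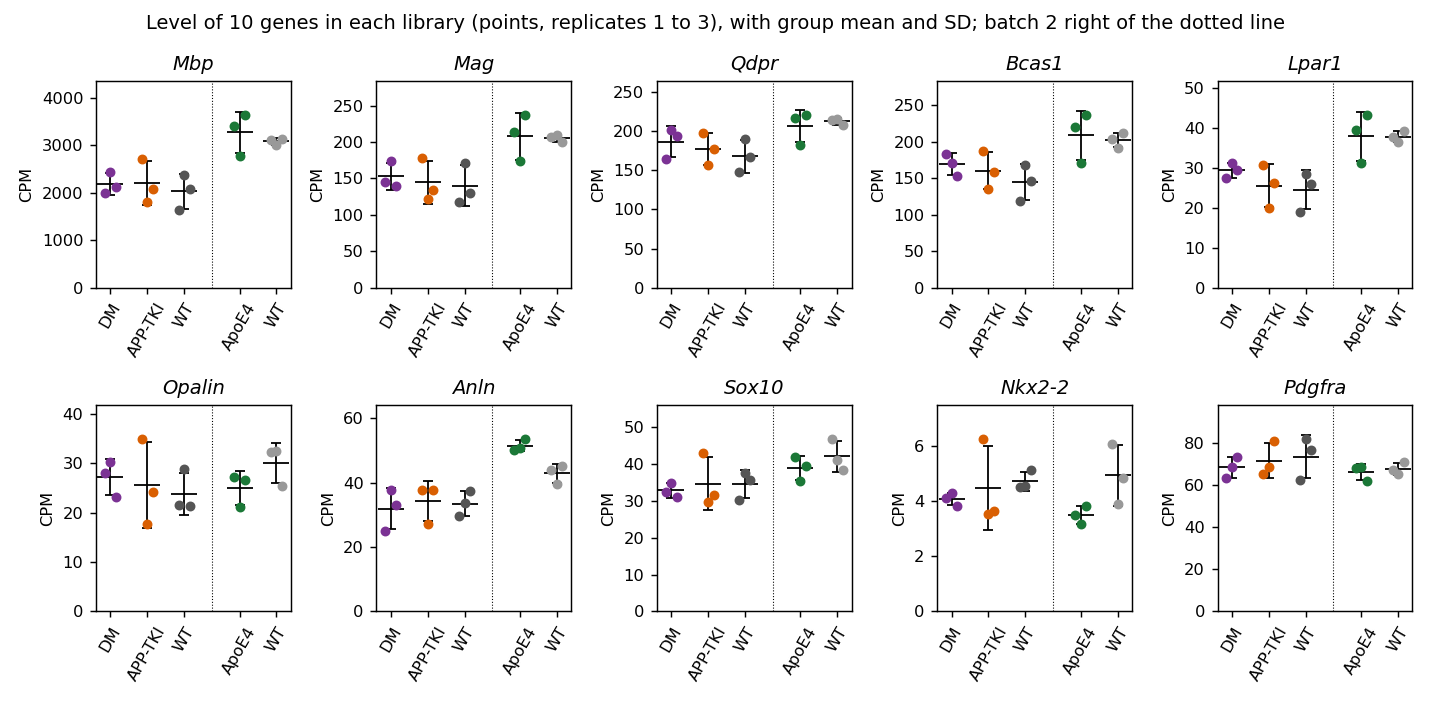
CPM of 10 genes in each library (points, replicates 1 to 3 from left to right), with the group mean and SD. In batch 1 the points of DM, APP-TKI and WT overlap for every gene shown except *Nkx2-2* in DM against WT (3.84 to 4.29 CPM against 4.52 to 5.12 CPM), and in batch 2 *Anln* in ApoE4 libraries lies wholly above WT and *Nkx2-2* wholly below.

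APP-TKI was compared with WT to ask what mutant *App* alone changed. Among the members 0 were called, against 1 of all genes (0.00618%). DESeq2 called 0 members and 0.155% of all genes, the robust likelihood ratio test 0 members and 0.309%. At the unadjusted level 0 members had a p under 0.05, against 3.56% of all genes. The log2 fold change was positive for 30 members, against 55.5% of all genes, with a median of 0.06. Scaled by TMM or by the median of ratios, 26 and 25 members were positive, against 50.6% and 49.9% of all genes. No member had groups that did not overlap, against 8.27% of all genes. With the upper quartile scaling of the main fit all 12 myelin sheath genes had a positive value, between 0.00 (*Cldn11*) and 0.14 (*Hapln2*). The sign of the smallest of these values can depend on the scaling. *Mbp* had 2703, 1807 and 2079 CPM in APP-TKI libraries, against 1639, 2371 and 2080 CPM in WT libraries. The groups overlapped from 1807 to 2371 CPM, with a log2 fold change of 0.11 (SE 0.15, adjusted p = 1.00 by the quasi-likelihood test). This direction also followed 1 library on each side: without APP-TKI replicate 1, 6 members were higher and 30 lower (median -0.09), and without WT replicate 1, 7 were higher and 29 lower (median -0.03). By number, 36, 1 and 21 members were higher in the APP-TKI library than in the WT library. The numbers were not taken as pairs in this comparison, so these counts depend on which libraries happen to share a number. The intervals lay within 0.5 on either side of 0 for 28 members.

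DM was set against APP-TKI to ask what *APOE4* changed in mice with mutant *App*. Of the members 0 were called and 0 of all genes (0%), and at unadjusted p under 0.05 the counts were 0 members and 3.78% of all genes. DESeq2 called 0 members and 0.111% of all genes, and the robust likelihood ratio test of edgeR 0 members and 0.328%. The value was positive for 22 members and negative for 14, against 50.4% positive over all genes, with a median of 0.03. The 1 member without overlap was *Ptprz1*, lower in every DM library (given above), by a log2 fold change of -0.07 (SE 0.05, adjusted p = 0.987 by the quasi-likelihood test), and 7.93% of all genes had groups without overlap. Largest in size was *Sgk2* at 0.41 (SE 0.25), with 1.74, 2.72 and 1.69 CPM in DM libraries, against 1.73, 1.44 and 1.44 CPM in APP-TKI libraries. DM replicate 2 was the highest, and the other DM libraries were at the level of the highest APP-TKI library. The interval was within 0.5 on either side of 0 for 27 members. Without APP-TKI replicate 2, 6 members were higher and 30 lower, without APP-TKI replicate 1, 31 were higher and 5 lower, and without DM replicate 2, 14 were higher and 22 lower.

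**Figure D4:**
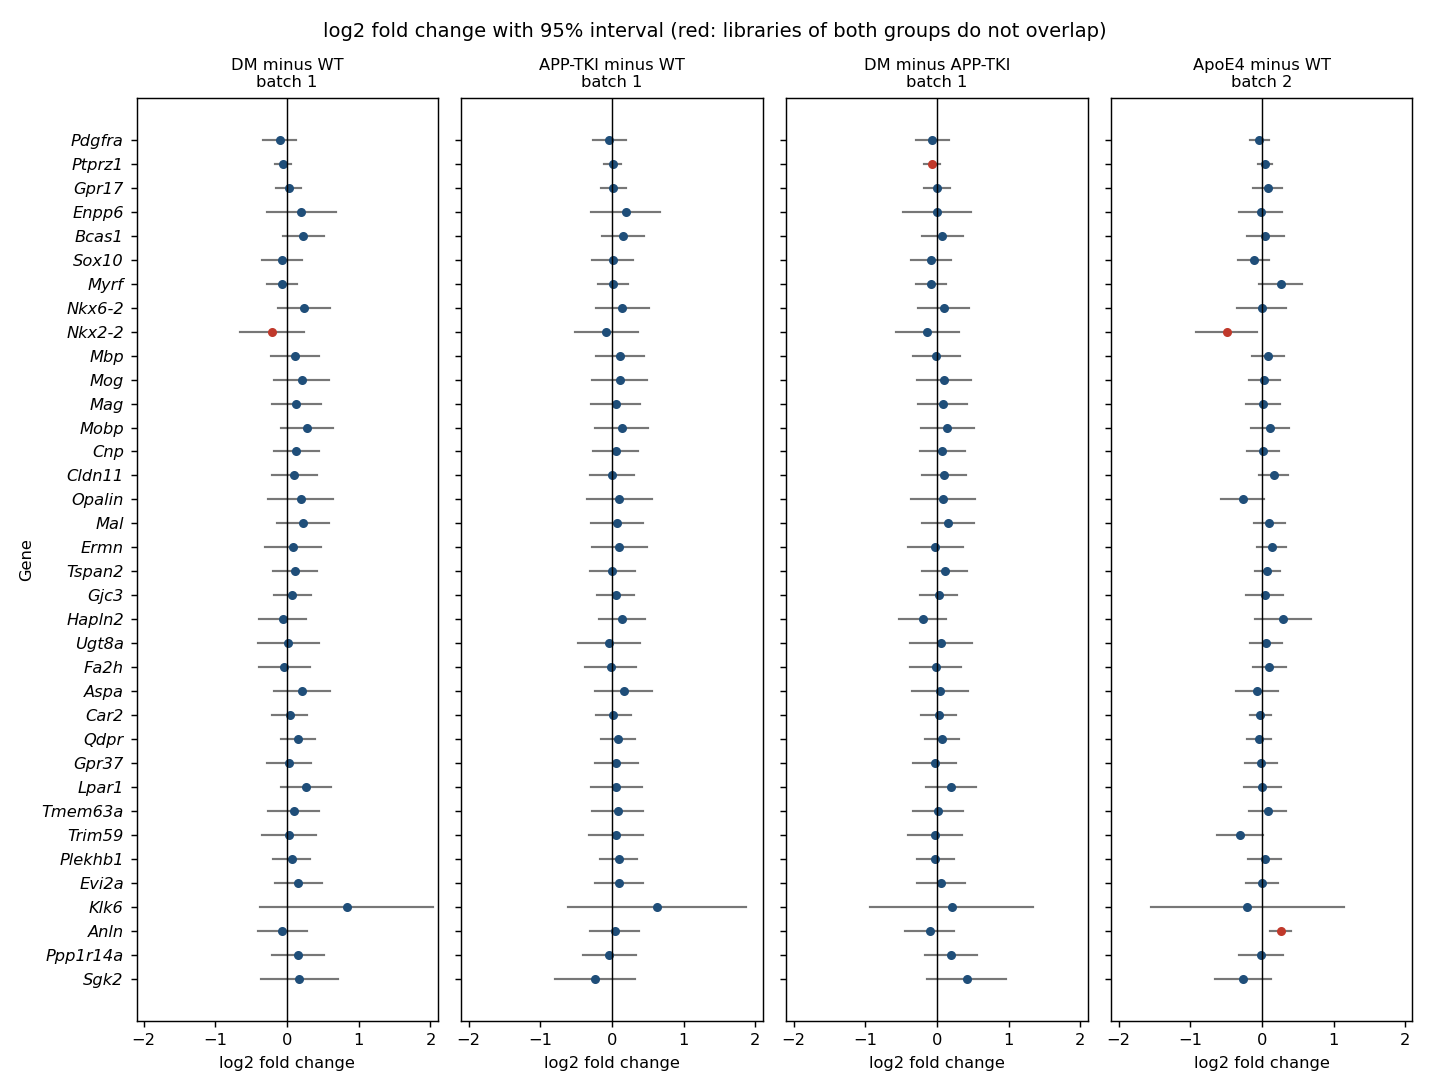
log2 fold change (points) and 95% interval (lines) of each gene in the 4 comparisons within a batch, from edgeR's quasi-likelihood fit, red where the libraries of both groups do not overlap. The intervals include 0 for every gene except *Nkx2-2* and *Anln* in ApoE4 against WT, and 35 of 36 lie within 1 on either side of 0 in each panel.

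ApoE4 was compared with WT in batch 2, without mutant *App*. Members called were 0, and genes called 0 of 16171 (0%), while DESeq2 called 0 members and 0.297% of all genes, and the robust likelihood ratio test 1 member (*Anln*, below) and 0.773% of all genes. At an unadjusted p under 0.05 there were 2 members, 1 higher and 1 lower, against 5.99% of all genes, which is near 2 of 36. Positive values were found for 22 members, against 45.9% of all genes, with a median of 0.03 over the members and -0.01 over all genes. Without ApoE4 replicate 2, 30 were higher and 6 lower, and 8 of the higher ones had an unadjusted p under 0.05, against 7.52% of all genes. Without ApoE4 replicate 1, 18 were higher and 18 lower, and without ApoE4 replicate 3, 10 were higher and 26 lower. Leaving out replicate 3 of both groups, the ApoE4 library highest in striatum markers and the WT library highest in thalamus markers, left 14 higher and 22 lower with a median of -0.03 and 0 called, a choice made after the data were seen.

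*Anln*, the actin-binding scaffold anillin, which acts in cytokinesis and in the myelin septin filaments of mice, had the smallest p of any member. It had 50.1, 50.7 and 53.5 CPM in ApoE4 libraries, against 43.9, 39.6 and 45.1 CPM in WT libraries. Every ApoE4 library was above every WT library, also ApoE4 replicate 2, where most members were low. The log2 fold change was 0.26 (SE 0.06, unadjusted p = 0.00332, adjusted p = 0.761 by the quasi-likelihood test) and it stayed between 0.21 and 0.30 when each library was left out. The gene lies at chr9:22332012-22389188 on the minus strand (GRCm38). The robust likelihood ratio test of edgeR, the kind of test named in the study's methods, called it (adjusted p = 0.0777), as 1 of 125 genes. The study reported fewer genes for this comparison at the same threshold. It had removed genes that do not code for protein and genes that change in the estrus cycle, so the gene sets are not the same. Of the 16171 genes tested here, however, 13911 code for protein. The part of these removals in the gap was not tested, and this call of *Anln* does not stand for the study's own result.

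*Nkx2-2* was the other member with groups that did not overlap, a state that 12.2% of all genes shared. It had 3.51, 3.18 and 3.83 CPM in ApoE4 libraries, against 6.08, 3.89 and 4.84 CPM in WT libraries. The nearest libraries of the groups were 3.83 and 3.89 CPM, and WT replicate 1 stood highest. The log2 fold change was -0.49 (SE 0.18, unadjusted p = 0.0290, adjusted p = 0.761 by the quasi-likelihood test) and -0.31 without WT replicate 1. The gene (chr2:147177546-147194243 on the minus strand, GRCm38) is overlapped by the antisense gene *Nkx2-2os*, and the row held 121 to 228 counts per library.

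Among the myelin sheath genes 11 of 12 were higher in ApoE4, with a median of 0.08, and *Opalin* was the exception. It had 27.1, 21.1 and 26.6 CPM in ApoE4 libraries, against 32.3, 32.5 and 25.4 CPM in WT libraries. ApoE4 replicates 1 and 3, high for most myelin genes, were below WT replicates 1 and 2 here. On the log2 scale the difference was -0.27 (SE 0.13, adjusted p = 0.761 by the quasi-likelihood test). *Mbp* had 3401, 2777 and 3622 CPM in ApoE4 libraries, against 3109, 3002 and 3134 CPM in WT libraries. The ApoE4 libraries fell on both sides of the WT ones, with a log2 fold change of 0.08 (SE 0.10, adjusted p = 0.855). *Mag* had 214, 173 and 237 CPM in ApoE4 libraries, against 207, 209 and 200 CPM in WT libraries. Here too the ApoE4 libraries lay on both sides of the WT ones, with a log2 fold change of 0.02 (SE 0.10, adjusted p = 0.976).

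The transcription factors went different ways. *Myrf*, which drives the myelin genes in the maturing cell, had 69.0, 57.4 and 83.5 CPM in ApoE4 libraries, against 62.7, 54.8 and 57.7 CPM in WT libraries, and the log2 fold change was 0.26 (SE 0.13, adjusted p = 0.761). *Sox10* had 41.7, 35.2 and 39.4 CPM in ApoE4 libraries, against 46.7, 41.0 and 38.4 CPM in WT libraries. Its log2 fold change was -0.12 (SE 0.09, adjusted p = 0.790). *Nkx6-2*, a homeodomain factor of myelinating cells, was at -0.00, and *Pdgfra* at -0.04, with 67.8, 68.4 and 61.6 CPM in ApoE4 libraries, against 66.8, 65.2 and 70.8 CPM in WT libraries. The 4 factors and *Pdgfra* therefore included values on both sides of 0, of which none passed the threshold. Of the 26 further mature genes 14 were higher and 12 lower, and of the 10 further precursor genes 7 were higher and 3 lower, with 0 called.

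DM minus APP-TKI and ApoE4 minus WT each measure 1 *APOE4* allele, in mice with and without mutant *App*. A fit of all 15 libraries took the first difference less the second, in which a shift shared by a whole batch drops out. By the quasi-likelihood test it was called for 0 members and 0 genes (0%), by DESeq2 for 0 members and 0.161% of all genes, and by the robust likelihood ratio test for 0 members and 0.748%. At an unadjusted p under 0.05 it reached 1 member, against 6.85% of all genes, and it was positive for 22 members, against 52.6% of all genes. The 1 member was *Sgk2*, with a difference of 0.68 (SE 0.31, adjusted p = 0.723 by the quasi-likelihood test). Its level in batch 2 was 2.32, 1.67 and 1.95 CPM in ApoE4 libraries, against 2.35, 2.49 and 2.32 CPM in WT libraries, and the ApoE4 minus WT value was -0.27, of the opposite sign to that in batch 1. *Anln* (-0.37, SE 0.20), *Myrf* (-0.35, SE 0.17) and *Hapln2* (-0.49, SE 0.24) had the next smallest p, among members, with adjusted p = 0.723 to 0.731. With no filter on low counts *Hapln2* was called (adjusted p = 0.0748 by the quasi-likelihood test), as were 393 of 36318 genes (1.08%). Intervals were wider here, within 0.5 on either side of 0 for 14 members and within 1 for 33.

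The WT groups of the 2 batches differed in most of these genes. *Mbp* averaged 3082 CPM in WT libraries of batch 2 and 2030 CPM in WT libraries of batch 1, a ratio of 1.52 with no overlap. The mean was higher in batch 2 for 34 of the 36 members, and for 26 every batch 2 library was above every batch 1 library, against 13.2% of all genes. Ratios extended from 0.921 for *Pdgfra* and 0.932 for *Ptprz1*, the 2 members that were lower, to 4.57 for *Klk6*, with a median of 1.35 over the members and 0.988 over all genes. The 26 further mature genes summed to 3868 to 4128 CPM in batch 2 WT libraries, against 2539 to 3408 CPM in batch 1, the 10 further precursor genes to 531 to 554 CPM, against 505 to 514 CPM, and the endothelial markers to 81.7 to 102 CPM, against 36.5 to 43.4 CPM. The groups share genotype, sex and age, and batch, dissection and animal cannot be told apart.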

How the data were processed

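The authors deposited whole-number read counts per gene. They trimmed reads with Trimmomatic 0.39, aligned them with STAR 2.7.1a to the mouse genome (GENCODE M24) with human *APOE* added and counted with HTSeq 0.11.2. From these counts, R 4.3.3 with edgeR 4.0.16, limma 3.58.1 and DESeq2 1.42.0 gave all values here. IDs were matched to a GENCODE annotation of GRCm38 (55230 of 55471). Genes with CPM over 1 in at least 3 of 15 libraries were kept (16171), scaled by the upper quartile and tested with edgeR's quasi-likelihood test, in a fit of 9 libraries (batch 1), of 6 (batch 2) or of all 15 (difference of differences), and called under an adjusted p of 0.1 (Benjamini-Hochberg). CPM values use the same scaling, and log2 CPM a prior count of 1. Each SE was worked back from the test, as the size of the log2 fold change over the square root of the F statistic. The 95% intervals use this SE with a t quantile and are approximate. Total counts were 32754717 to 44630808 per library, and no libraries were duplicates. The steps were tested on simulated counts, in which genes varied independently and changes were larger than those of the members here. That test does not bear on small changes or on genes that vary together. Figures were drawn with matplotlib.

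The 36 members, their 6 roles and 13 other lists (140 symbols, all matched) were chosen with earlier results of these data known. Values in every library are given for the member with the smallest p in each role over the comparisons within a batch, and for *Mbp*, *Mag*, *Sox10* and *Pdgfra*. *Nkx6-2*, *Klk6*, *Sgk2*, *Ptprz1*, *Myrf* and other genes with values were named after their values were seen. Alternatives were the robust likelihood ratio test, DESeq2, other scalings, filters and libraries in the fit, a replicate block and each library left out. A stricter threshold, an adjusted p under 0.05, was also applied to the main fit. The labels give replicate numbers without saying that they pair. The main fits had no block, also for DM against WT. Deviations of same-numbered DM and WT libraries from their group means correlated over genes at 0.446, 0.195 and 0.300, each library best with its own number. On that ground they were taken as pairs in the alternative fit of the DM and WT libraries only. The pairing was thus read from the same counts that the fit tested. In the other comparisons at least 1 such correlation was under 0.1 and the numbers were not taken as pairs.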

Additional observations from a re-analysis of the deposited data

How the results depend on the processing

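With 0 members called in every comparison, 99 of the 102 alternative counts were also 0. For each comparison these 99 include the count at an adjusted p under 0.05 in the main fit, which could only be 0. The exceptions were 1 member for DM against WT with the replicate block in DM and WT libraries only (*Qdpr*, adjusted p = 0.0794, among 2.61% of all genes), 1 for ApoE4 against WT by the robust likelihood ratio test (*Anln*, adjusted p = 0.0777, among 0.773%), and 1 for the difference of differences with no filter on low counts (*Hapln2*, adjusted p = 0.0748), where 393 of 36318 genes (1.08%) were called. The cause was not tested. For DM against WT the replicate block over all 9 libraries gave 0 members, a median of 0.11 and 11 genes called, against 2 without it. In the other comparisons within a batch it gave 0 members too, with 9 genes for APP-TKI against WT, 1 for DM against APP-TKI and 0 for ApoE4 against WT. The log2 fold change of *Mbp* in DM against WT was -0.026 to 0.23 with each library left out and -0.012 with the level of 26 other mature oligodendrocyte genes as a covariate. That covariate takes up variation that these genes share with the members. With each library left out, the median over the members was 0.00 to 0.24 for DM against WT, -0.09 to 0.18 for APP-TKI against WT, -0.07 to 0.20 for DM against APP-TKI, -0.04 to 0.13 for ApoE4 against WT and -0.08 to 0.18 for the difference, and the count of members called 0 throughout. Precision was limited by 3 libraries a group and by counts as low as 8 for *Klk6*.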

Other observations

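When the level of 26 other mature oligodendrocyte genes in each library was added to the fit as a covariate, an alternative chosen after the data were seen, the medians over the members came to 0.01 for DM against WT, -0.00 for APP-TKI against WT, -0.00 for DM against APP-TKI and 0.03 for ApoE4 against WT. Those genes vary with the members, so medians near 0 are built into such a fit. The covariate also takes up part of the scatter on which the p-values rest, and batch 2 has only 6 libraries. In ApoE4 against WT 7 members then had an unadjusted p under 0.05, against 6.38% of all genes, and 0 passed the threshold. *Myrf* (log2 fold change 0.26, SE 0.06), *Anln* (0.27, SE 0.06), *Cldn11* (0.17, SE 0.05) and *Ermn*, a cytoskeletal protein of the sheath (0.14, SE 0.04), were higher in ApoE4. *Nkx2-2* (-0.48, SE 0.17), *Opalin* (-0.27, SE 0.10) and *Trim59*, a tripartite motif protein (-0.29, SE 0.11), were lower. All 7 had an adjusted p of 0.740 by edgeR's quasi-likelihood test.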
